A study of Mus musculus with 2 samples.

Results

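The genes described here encode the machinery through which macrophages sense interleukin-4 (IL-4) and interleukin-13 (IL-13). They comprise 4 receptor chains (Il4ra, Il2rg, Il13ra1 and Il13ra2), the 4 Janus kinases or JAKs (Jak1, Jak2, Jak3 and Tyk2) and 2 insulin receptor substrate (IRS) adaptors (Irs1 and Irs2). These 10 genes were taken by name from the 15623 genes listed in the series. The naming rule uses no measured value, but it was set with earlier results of these data known. Of the 10, 9 were listed in nontreated cells and 10 in IL-4-stimulated cells. RNA sequencing was performed on peritoneal macrophages from wild-type C57BL/6 mice. One library came from cells left nontreated (NT) and the other from cells stimulated with mouse IL-4 for 6 h. Both came from cells that thioglycolate had drawn into the peritoneal cavity, that were purified by adherence and then starved in low serum, from young adult mice by the study's methods, and the labels give neither an age nor whether animals were pooled. The labels name bone marrow as the tissue but peritoneal macrophages as the source, and the latter was used.

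IL-4 binds the IL-4 receptor α chain (Il4ra), which then pairs with the common γ chain (Il2rg) in the type I receptor or with Il13ra1 in the type II receptor. The type II receptor also binds IL-13, whereas Il13ra2 binds IL-13 with high affinity and is known mainly as a decoy. The chains have no kinase activity and use JAKs bound to their tails, Jak1 on Il4ra, Jak3 on Il2rg, and Tyk2 or Jak2 on Il13ra1. The kinases phosphorylate Stat6, which drives the alternative (M2) program of macrophages, and the IRS adaptors, which link the receptor to phosphoinositide 3-kinase.

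With 1 library per group, no difference below could be set against the spread between animals. The NT library held 11035641 expected counts and the IL-4 library 11250099, where an expected count is the estimated number of reads from a gene. Genes are termed called, higher or lower, if the log2 ratio (IL-4 over NT) reached 0.75 in either direction, the exact binomial p-value was no more than 0.05 and its Benjamini-Hochberg (BH) adjustment no more than 0.5. Such a test speaks for these libraries and not for the treatment. Each interval given is a 95% interval and covers counting error only, and reads amplified by PCR are not independent molecules. Among 15593 tested genes, 4.07% were called higher and 6.28% lower. Longer transcripts tended to have lower ratios (Spearman -0.45 over 8463 genes of at least 200 reads, which are not independent replicates). Each member's ratio is therefore also given after subtraction of the median over its 500 neighbours in transcript length, termed the length trend. After that step 4.00% of genes were called higher and 4.74% lower.

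Macrophage markers were abundant in both libraries, and the 7 markers examined summed to 187431 expected counts in NT and 195251 in IL-4 cells. Most of that sum was Lyz2 (129463 and 126458 counts). Csf1r, with 6236 counts in NT and 11896 in IL-4 cells, was called higher (log2 ratio 0.90). It was also called less the length trend (0.99). By contrast, the 7 T cell markers summed to 66.74 counts in NT and 55.16 in IL-4, and the 5 B cell markers to 106 and 97. The summed counts of the other lists were lower in the IL-4 library, at 11.06 in NT and 6.02 in IL-4 for NK cells, 36 and 21 for neutrophils, 53 and 28 for eosinophils and 60 and 37 for mast cells. Siglecf, an eosinophil marker that some macrophages also express, was called lower (53 and 27 counts), while Ly6g, Mpo, Epx, Ccr3, Fcer1a and Gzmb were listed in neither library. The 8 mesothelial or stromal markers, led by Col1a1, summed to 2114 counts in NT and 1732 in IL-4, and the mesothelial marker Msln was called lower (12 and 2 counts). All these marker sums are raw counts, from which the length trend was not subtracted. Less that trend the log2 ratios of Col1a1, Col1a2, Col3a1 and Pdgfra were -0.09, 0.11, -0.13 and -0.32. Fewer cells of a type and less RNA per cell cannot be told apart in such bulk samples.

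Of the 10 genes, 1 was called higher upon IL-4 stimulation (Jak2), 1 was called lower (Irs2), and 8 were not called. The same genes were called after subtraction of the length trend. With shares of 4.07% and 6.28% over all genes, 1 call in each direction among 10 genes is a description of Jak2 and Irs2 and not a result about the group. The median log2 ratio of the 10 was -0.22, beside -0.03 for all tested genes. At an exact p-value of at most 0.05 and any ratio, 7 of the 8 members with at least 50 counts differed between libraries. The share was 55.0% over all 9925 genes with at least 50 counts. Those genes were not matched to the members in depth, and deep genes pass at small ratios, as Jak1 did at -0.07. The plot of levels shows that the members ranged widely in FPKM, a value scaled for transcript length and depth that allows genes to be compared.

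**Figure D1:**
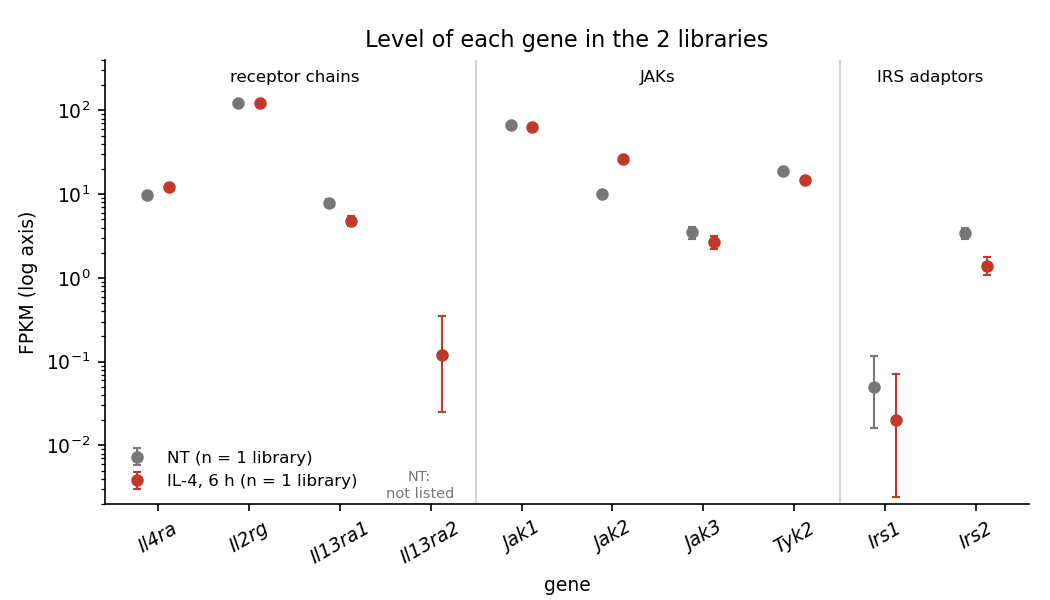
Level of each gene in FPKM (log axis) in the NT library (grey) and the IL-4 library (red), 1 library each. Bars are exact Poisson 95% intervals of the count put on the FPKM scale. Il2rg and Jak1 lie highest in both libraries, Jak2 moves from 10.13 to 26.43, and Il13ra2 was not listed in NT.

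In NT cells the order of the levels was Il2rg at 124.32 FPKM, Jak1 at 67.34, Tyk2 at 18.76, Jak2 at 10.13, Il4ra at 9.76, Il13ra1 at 7.87, Jak3 at 3.49, Irs2 at 3.40 and Irs1 at 0.05. Jak2 and Il4ra did not differ beyond their counting intervals in that order, and neither did Jak3 and Irs2. Upon IL-4 stimulation Jak2 passed Tyk2 to take the third place, and the other genes above 1 FPKM kept their order. All neighbours in the IL-4 library had separate intervals, except Il13ra2 and Irs1 at the bottom.

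The receptor chains were examined first. Il4ra (gene 16190, chromosome 7, 125552271 to 125579474, GRCm38) encodes the chain that binds IL-4 itself. It had 558 expected counts (9.76 FPKM) in NT and 720 (12.35 FPKM) in IL-4 cells. The IL-4 value was thus the higher by 1.27-fold, a log2 ratio of 0.34 (interval from 0.18 to 0.50) that was separate from 0 but lay under the calling threshold. Less the length trend the ratio was 0.55, still not called. The tables list a single transcript for Il4ra, so alternative forms of the receptor were not separated.

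Il2rg (gene 16186, chromosome X, 101264385 to 101268255) encodes the common γ chain, which the receptors for IL-2, IL-7, IL-9, IL-15 and IL-21 share. It was the most abundant of the 10 genes per length, with 2270 counts (124.32 FPKM) in NT and 2261 (121.28 FPKM) in IL-4 cells. The values lay close together, at a log2 ratio of -0.03 (interval from -0.12 to 0.05). The ratio turned to 0.0033 with TMM scaling, while subtraction of the length trend gave -0.16 (interval from -0.24 to -0.07, below 0). The T cell, B cell and NK cell markers, whose cells also express this chain, had at most 106 counts per list in the NT library.

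Il13ra1 (gene 16164, chromosome X, 36112108 to 36171262) encodes the second chain of the type II receptor. Its expected count was 327 (7.87 FPKM) in NT and 203 (4.79 FPKM) in IL-4 cells. The IL-4 value was lower, at a log2 ratio of -0.71, and the interval, from -0.98 to -0.46, spanned the threshold. Il13ra1 was thus not called under the main rule, but a second rule, of a fold above 1.5 and a BH adjustment no more than 0.05, did call it lower, as it did 7.74% of all genes. The raw sums of the mesothelial or stromal markers (1732 against 2114 counts) and of the blood cell types above were also lower in the IL-4 library. The length trend was not subtracted from these sums, and the part of those cells in this difference was not tested.

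Il13ra2 (gene 16165, chromosome X, 147383478 to 147429192) encodes the decoy chain for IL-13. It was not listed in NT and had 3 expected counts (0.12 FPKM) in IL-4 cells. A count of 0 in NT allows up to 3 counts, or 0.272 CPM (counts scaled to the library total), beside 0.267 CPM measured in IL-4 cells. A difference in Il13ra2 was therefore not detectable at this depth.

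The balance among the chains was then compared within each library, where the scaling between libraries cancels. The 9 ratios of this kind were chosen with the values known and are a description. Il4ra exceeded Il13ra1 by 1.24-fold in FPKM in NT and by 2.58-fold in IL-4 cells. The log2 change of this ratio was 1.05, with an exact conditional interval from 0.75 to 1.36. Il2rg exceeded Il4ra by 12.7-fold in NT and by 9.82-fold in IL-4 cells, and the log2 change of Il4ra relative to Il2rg was 0.37 (interval from 0.19 to 0.56). The length trend does not cancel in such a ratio, and since the Il4ra transcript is much the longer, this change was 0.70 (interval from 0.52 to 0.89) less the trend. The Il2rg to Il13ra1 ratio in FPKM went from 15.8 to 25.3. Relative to both chains of the type I receptor, the mRNA of the chain specific to the type II receptor was thus lower in the IL-4 library. That holds by counting error alone, and the spread between animals was not measured.

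**Figure D2:**
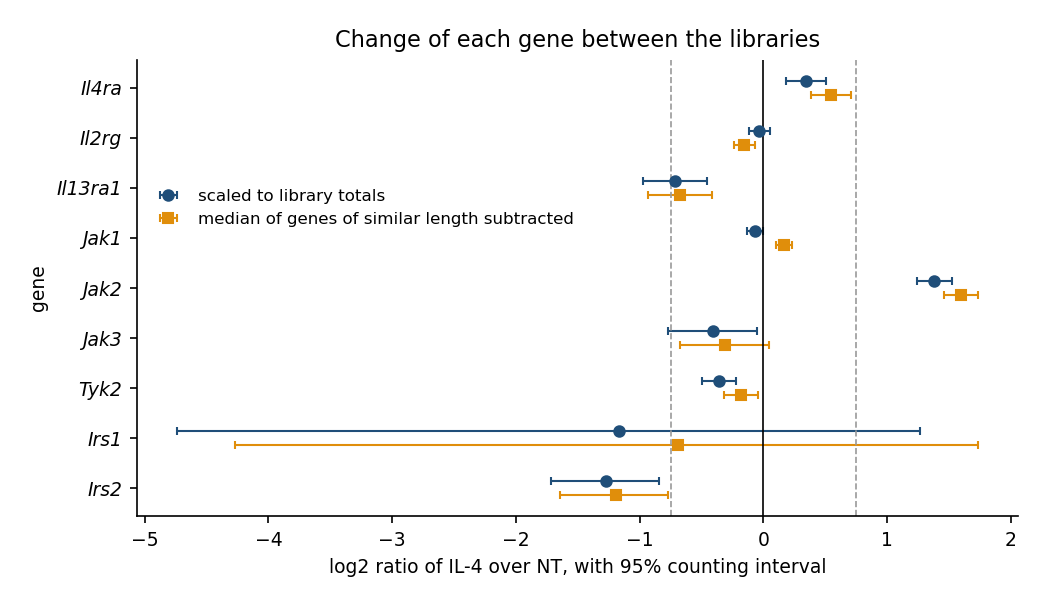
Log2 ratio of IL-4 over NT for 9 genes with its 95% counting interval, scaled to library totals (blue circles) or less the length trend (orange squares). Dashed lines mark the threshold of 0.75 in either direction. Jak2 and Irs2 lie outside the threshold in both, Jak1 moves from -0.07 to 0.17, and Il13ra2, at or under 3 counts in both libraries, is left out.

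Among the kinases, Jak2 (gene 16452, chromosome 19, 29251803 to 29313095) was the 1 member called higher. Jak2 serves the receptors for IFN-γ, GM-CSF and IL-3 and can act on Il13ra1 in the type II receptor. Its expected count was 568 (10.13 FPKM) in NT and 1509 (26.43 FPKM) upon IL-4 stimulation. This is a rise of 2.60-fold, a log2 ratio of 1.38 (interval from 1.24 to 1.52). The ratio exceeded that of 98.2% of the 9925 genes with at least 50 counts. The whole interval lay above the threshold, and it lay higher still, from 1.45 to 1.74, less the length trend. Variation between animals is not measured by these libraries and was set by assumption. At an assumed biological coefficient of variation (BCV) of 0.2 the edgeR exact test gave Jak2 a BH-adjusted p of 0.0616, and with 0.4 it gave an adjusted p of 1 and no call.

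Jak1 (gene 16451, chromosome 4, 101151974 to 101265282) encodes the kinase bound to Il4ra and to many other cytokine receptors. It was the most abundant JAK in both libraries, with 3982 counts (67.34 FPKM) in NT and 3863 (64.04 FPKM) in IL-4 cells. The log2 ratio was -0.07 (interval from -0.14 to -0.01, just short of 0). With the length trend subtracted, however, the ratio was 0.17 (interval from 0.10 to 0.23), so the direction of Jak1 depended on that step.

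Tyk2 (gene 54721, chromosome 9, 21104068 to 21131393) encodes the kinase that associates with Il13ra1 and with the type I interferon and IL-12 receptors. It had 1010 counts (18.76 FPKM) in NT and 802 (14.61 FPKM) in IL-4 cells. The IL-4 value was lower by a log2 ratio of -0.36 (interval from -0.50 to -0.23) and was not called. With the length trend subtracted, the ratio was -0.18 and its interval, from -0.32 to -0.05, came close to 0.

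Jak3 (gene 16453, chromosome 8, 71676383 to 71690577) encodes the kinase bound to the common γ chain and was the least abundant JAK. It had 151 counts (3.49 FPKM) in NT and 116.07 (2.65 FPKM) in IL-4 cells, a log2 ratio of -0.41 (interval from -0.77 to -0.05). The interval included 0 once the length trend was subtracted (from -0.68 to 0.04), and Jak3 was not called in either case. The last part of the Jak3 locus is shared with Insl3, to which 2.93 counts were assigned in IL-4 cells and none in NT. Lymphocytes also express Jak3, and the T cell and B cell marker sums given above were both somewhat lower in the IL-4 library. No marker of either list was called, however, and the median log2 ratio of the B cell markers was 0.05. The part of lymphocytes in the Jak3 values was not tested.

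Since the 4 kinases had transcripts of 3868 to 5299 bases, their shares of the summed JAK level were compared as well. The sum was 99.72 FPKM in NT and 107.73 FPKM in IL-4 cells. Jak1 made up 67.5% of it in NT and 59.4% in IL-4 cells. Jak2 went from 10.2% to 24.5%, Tyk2 from 18.8% to 13.6% and Jak3 from 3.50% to 2.46%. Jak1 thus exceeded Jak2 by 6.65-fold in NT and by 2.42-fold in IL-4 cells. The Jak2 to Tyk2 ratio in FPKM turned over, from 0.540 in NT to 1.81 in IL-4 cells, a log2 change of 1.74 with an interval from 1.55 to 1.94. Tyk2 relative to Jak1 had a log2 change of -0.29, with an interval from -0.44 to -0.14, and for Jak3 relative to Jak1 the interval included 0 (from -0.70 to 0.03). Less the length trend, the Jak3 to Jak1 interval lay below 0 (from -0.85 to -0.12).

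**Figure D3:**
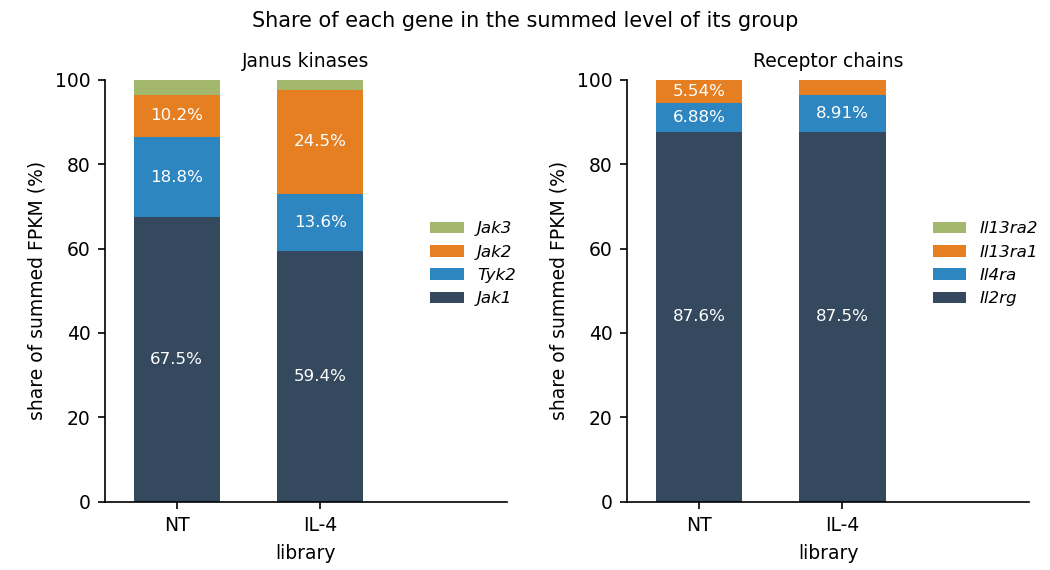
Share (%) of each Janus kinase (left) and each receptor chain (right) in the summed FPKM of its group, in the NT and IL-4 libraries, 1 library each. Jak2 grows from 10.2% to 24.5% of the JAK sum, whereas Il2rg stays near 87.6% of the receptor sum. Il13ra2 is too low to be seen.

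Of the adaptors, Irs2 (gene 384783, chromosome 8, 10984681 to 11008929) was the one detected at depth and was called lower. Irs2 carries the phosphotyrosines that recruit phosphoinositide 3-kinase to the IL-4, insulin and IGF-1 receptors. It fell from 152 counts (3.40 FPKM) in NT to 64 (1.40 FPKM) upon IL-4 stimulation. The NT value was the higher by 2.41-fold, a log2 ratio of -1.27 (interval from -1.72 to -0.85). The ratio was below that of 98.4% of the genes with at least 50 counts. Subtraction of the length trend left it at -1.19, with an interval from -1.64 to -0.77 that stayed past the threshold. The edgeR exact test gave Irs2 a BH-adjusted p of 0.209 at an assumed BCV of 0.2, and an adjusted p of 1 and no call with 0.4. The raw mesothelial or stromal, eosinophil, mast cell, neutrophil, NK cell and lymphocyte marker sums were lower in the IL-4 library as well. The length trend was not subtracted from these sums, and the part of those cells in the fall of Irs2 was not tested. A long non-coding RNA, 9530052E02Rik, overlaps the Irs2 locus but had at most 2.35 counts.

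Irs1 (gene 16367, chromosome 1, 82233105 to 82291439), the adaptor best known from muscle and fat cells, was barely detected. It had 5 counts (0.05 FPKM) in NT and 2 (0.02 FPKM) in IL-4 cells. The log2 ratio of -1.17 had an interval from -4.74 to 1.26, so no difference was detectable at this depth. Irs2 made up 98.6% of the summed IRS level in each library. Relative to Il4ra, the receptor chain that recruits it, Irs2 had a log2 change of -1.61, with an interval from -2.09 to -1.15.

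The remaining genes of the pathway were examined as lists, in which the same calling rule was applied and which are read beside the 4.07% and 6.28% above. The ligands Il4 and Il13 were listed in neither library. None of the 5 STAT genes was called. Stat6, which the receptor activates, had 2951 counts (69.68 FPKM) in NT and 2420 (56.02 FPKM) in IL-4 cells, a log2 ratio of -0.31 (interval from -0.39 to -0.24). Stat6 was thus close to Jak1 in level in NT cells.

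Of 13 feedback inhibitors, 3 were called higher and 0 lower, and the median log2 ratio of the 13 was 0.34. Socs1, which inhibits JAKs directly, rose from 11 counts (0.83 FPKM) to 355 (26.06 FPKM), a log2 ratio of 4.92. Socs2 rose from 5 to 74 counts (0.22 to 2.97 FPKM), a log2 ratio of 3.73. Cish was not listed in NT and had 662 counts (19.40 FPKM) in IL-4 cells. Against a floor of 3 counts in NT that is 216-fold higher. Its interval, which also covers counting error in the IL-4 library, starts at a log2 ratio of 7.46. These 3 kept their calls at an assumed BCV of 0.4. Socs3, at 112 and 145 counts, was not called. The phosphatase Ptpn6, at 2775 and 1981 counts (log2 ratio -0.51), and the ubiquitin ligase Rnf128 (-0.57) were not called either, although their intervals lay below 0. Other inhibitors lay near the threshold. Ptpn2, a phosphatase that acts on JAKs, had 246 counts in NT and 401.01 in IL-4 cells (log2 ratio 0.68), and the ubiquitin ligase Cblb had 1618 and 2556 (log2 ratio 0.63). The second rule, which called 4.84% of all genes higher, called both. Less the length trend, the main rule called Cblb higher as well (0.94) but not Ptpn2 (0.55).

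Among 17 partners of the IRS adaptors, of which 15 were tested, 0 were called higher and 1 lower, and the median log2 ratio was -0.32. The length trend was not subtracted from that median. The called gene was Igf1r, an upstream receptor of the IRS adaptors, which fell from 149.07 to 83.27 counts (log2 ratio -0.86). Igf1r lost its call once the length trend was subtracted, at a ratio of -0.36, and at an assumed BCV of 0.2. Insr, the insulin receptor, had 406.18 counts in NT and 280.24 in IL-4 cells (log2 ratio -0.56, or -0.08 less the length trend). The catalytic subunits Pik3cb and Pik3cd of phosphoinositide 3-kinase had log2 ratios of -0.69 and -0.64, and the docking protein Gab2 had -0.65. Less the length trend the ratios of Pik3cb, Pik3cd and Gab2 were -0.52, -0.46 and -0.36. These 3 genes were called lower by the second rule alone. The docking protein Dok2 had a log2 ratio of 0.51 (interval from 0.32 to 0.70), or 0.38 less the length trend. The adaptor Grb2 had 4170 expected counts in both libraries.

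To set the IL-4 receptor chains beside others that signal through JAKs, 36 receptor genes were examined, of which 33 were tested, 5 were called higher and 2 lower. Il6st (gp130), the shared chain of the IL-6 family receptors, rose from 1133 counts (18.62 FPKM) to 3434 (55.32 FPKM), a log2 ratio of 1.57 (interval from 1.47 to 1.67). Il20rb rose from 18 to 111 counts (log2 ratio 2.56), Il27ra from 67 to 146 (1.09), Csf3r from 1758.13 to 3290.96 (0.88) and Il10rb from 4337 to 7498 (0.76). Il10ra fell from 664 to 291 counts (log2 ratio -1.22), so both chains of the IL-10 receptor were called, in opposite directions. Osmr fell from 53 to 29 counts (-0.89). Il10rb and Osmr lost their calls once the length trend was subtracted, and Csf3r, Il10rb and Osmr at an assumed BCV of 0.2. At 0.4 all 7 lost theirs.

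Several of these receptors use Jak2. The IFN-γ receptor chain Ifngr1 had 53.79 FPKM in NT and 73.65 in IL-4 cells, and its partner Ifngr2, which binds Jak2, had 139.98 and 177.78. Csf2rb, the chain shared by the GM-CSF, IL-3 and IL-5 receptors, had 142.08 and 162.99 FPKM. None of the 3 was called, at log2 ratios of 0.45, 0.35 and 0.20. Of the other receptors that use the common γ chain, Il7r was the most abundant, at 239.93 FPKM in NT and 193.13 in IL-4 cells, and Il21r had 9.14 and 6.24.

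**Figure D4:**
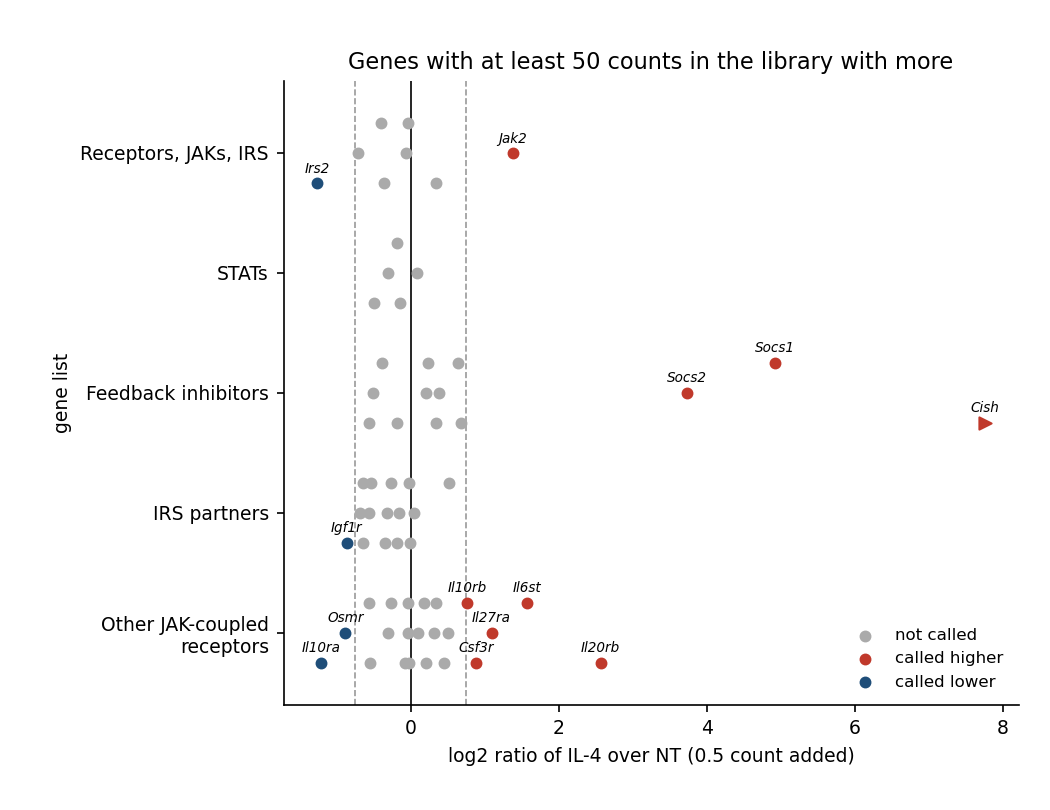
Log2 ratio of IL-4 over NT for the genes of each list with at least 50 counts in the library with more, 1 point per gene. Red points were called higher, blue points lower and grey points were not called, dashed lines mark 0.75 in either direction, and the triangle places Cish, not listed in NT, at its lower bound. Socs1, Socs2 and Cish lie farthest to the right, and Jak2 and Irs2 lie at opposite ends of the top row.

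The genes most like Jak2 in their pair of values were Gatm, at 10.47 FPKM in NT and 26.77 in IL-4 cells, and Rrp8, at 10.34 and 25.24. Likeness was the distance between pairs of log2 values of FPKM with 0.1 added over the 2 libraries, which was 0.05 for Gatm and 0.07 for Rrp8. For Irs2 the nearest gene had no symbol in the RefSeq table and the next was Smad3 (3.65 and 1.40 FPKM, distance 0.10), and for Il4ra it was Thoc1 (9.62 and 12.45 FPKM, distance 0.02).

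The promoters of the 10 genes were searched for the spacings that STAT dimers bind. Each promoter was the RefSeq window of 250 bases before to 50 bases after the transcription start (GRCm38.p6), 1 for each of the 10 genes. The 32851 windows used as background cover 27025 genes, so some of those genes have more than 1. The motif of Stat6, TTC and GAA separated by any 4 bases, was found in 0 of the 10 windows, beside 6.95% of 32851 windows over all genes. The motif of the other STATs, in which 3 bases separate them, was likewise found in 0 of 10, beside 8.30% of all windows. Both motifs read the same on either strand. This says only that these letters are not in these windows.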

How the data were processed

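RNA from the NT and IL-4 samples (1 each, grouped by title) was prepared on columns and read on an Illumina HiSeq instrument. Per the methods and labels, the authors aligned to GRCm38/mm10 using Bowtie, and RSEM estimated gene levels (versions not stated). The deposited expected counts are RSEM estimates, unscaled. The authors also deposited FPKM, scaled for length and depth, and a length per gene. A gene absent from a table was set to 0. Gene numbers were matched to a RefSeq table (15587 of 15623).

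Log2 ratios used counts scaled to library totals with 0.5 count added. Expected counts were rounded, 30 genes at 0 in both were left out, and the other 15593 entered a conditional binomial test, exact and two-sided, with BH adjustment over all. The p-value was 2 times the smaller tail. That definition replaced the sum over outcomes no likelier than the observed one after the counts of calls had been seen, and both counts are given with the alternatives. The 9 ratios between members and the shares of summed levels were also chosen with values seen, as was the subtraction of the length trend from those ratios. Intervals are Clopper-Pearson (ratios), Poisson (levels) or conditional odds ratio (ratios between genes) 95% intervals. The floor was 3 counts (0.272 CPM in NT, 0.267 in IL-4). The genes named are the 10 members, the called genes of the lists and others of them with at least 50 counts, and the nearest genes for members of that depth. The lists comprised STATs, ligands, feedback inhibitors, IRS partners, other receptors and cell type markers. Members and lists were chosen with earlier results of these data known. Whether the libraries preserved strand is not given in the sources used here, so overlapping genes on opposite strands cannot be told apart. The procedure was tested on simulated counts, the length trend only away from the shortest and longest genes. Alternatives used edgeR 4.0.16 (TMM, exact test) and DESeq2 1.42.0 (size factors) in R 4.3.3. Other steps ran in Python 3.11.15 with scipy 1.17.1, numpy 2.4.6, matplotlib 3.10.9 and pandas 2.3.3. Protein sequences were not used here.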

Additional observations from a re-analysis of the deposited data

How the results depend on the processing

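No paired analysis was possible because NT and IL-4 had 1 sample apiece. The 12 alternatives of processing, and 1 chosen after seeing the data, gave 116 comparisons of a member's log2 ratio (Il13ra2 left out). Of these, 111 kept their direction and side of the threshold. The edgeR exact tests, the other thresholds, the filter of at least 50 counts and the other p-value left the ratio itself unchanged. Direction could not turn under those, so much of that agreement was fixed in advance. The alternative chosen after seeing the data defined the two-sided p-value as the sum over outcomes no likelier than the observed one. It had been run first, called 637 genes higher and 1053 lower in place of 635 and 979, and changed the call of no member. Il2rg turned to 0.0033 with TMM scaling and Jak1 to 0.17 less the length trend. Under the second rule Il13ra1 (-0.71) was called, which made 2 members lower. The edgeR exact test at an assumed coefficient of variation of 0.4 called 0 members higher and 0 lower, since Jak2 (1.38) and Irs2 (-1.27) lost their calls, and over all genes it called 65 higher and 8 lower. At 0.2 it called 390 and 423. FPKM with 1 added gave 391 genes higher and 399 lower, and a log2 ratio of at least 1 gave 408 and 476. Larger assumed variation, a larger added value and a higher threshold each make calls harder by construction. Over these alternatives the ratio of Jak2 ran from 1.30 to 1.59 and that of Irs2 from -1.29 to -0.87. Depth limits Irs1 and Il13ra2, with at most 5 counts each.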
